A study of Mus musculus with 6 samples.

Results

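The 10 genes examined here are markers by which alternatively activated macrophages are usually recognised, namely the scavenging and endocytic receptors *Mrc1*, *Cd163*, *Folr2* and *Lyve1*, the secreted proteins *Retnla* and *Chil3*, the crosslinking enzyme *Tgm2*, the receptor chains *Il4ra* and *Il13ra1*, and the cytokine *Il10*. They were taken by gene symbol, and each symbol matched 1 of the 55335 Ensembl genes in the table. Of these 10, 8 reached the mean of 0.5 FPKM (fragments scaled to transcript length and to the library's total) over all libraries that was required for testing, as did 13367 genes in all, while *Retnla* and *Lyve1* lay under it.

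Macrophages become alternatively activated when IL-4 or IL-13 binds a receptor built around the IL-4Rα chain. The receptor activates the transcription factor STAT6, which turns on genes for lectins, chitinase-like and resistin-like proteins and arginase. IL-10, which acts through another receptor and STAT3, and glucocorticoids raise a partly different set that includes the haemoglobin scavenger receptor CD163. After spinal cord injury (SCI), cells with such markers are commonly set against inflammatory, iNOS-expressing macrophages, although single cells can carry genes of both kinds.

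Bone marrow-derived macrophages (BMDMs) were grown for 7 days with 25 ng/ml macrophage colony-stimulating factor from the marrow of *Cd177* WT mice. They were then kept for 24 h with neutrophils that had been isolated magnetically from injured spinal cords at 3 days post-injury (dpi), and the donors of these neutrophils were *Cd177* WT or *Cd177* KO mice. The animals were adult male C57BL/6 mice with a contusion of the thoracic cord. Both groups thus shared the macrophage genotype, the injury and the contact with lesion neutrophils, and BMDMs without neutrophils were not analysed here. Macrophages were sorted as Ly6G- cells before RNA-seq, with 3 libraries in each group. Whether the 3 replicates came from separate cultures or animals is not stated, so that p-values measure the spread between these libraries only.

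*Cd177*, the gene of a neutrophil surface protein that was deleted in the KO donors, had 0.544, 0.309 and 0.521 FPKM in WT-labelled libraries and 1.79, 1.84 and 2.28 FPKM in KO-labelled libraries. This order runs against the labels, although the sequenced macrophages carry the intact gene, so directions are given here between libraries as labelled. Whether the labels were exchanged cannot be told from these values. FPKM sums lay between 302532 and 340717, and the depth implied by the smallest steps of the values was between 17600000 and 20300000 fragments per library. The macrophage markers *Csf1r*, *Cd68* and *Lyz2* were high in all 6 libraries, with at least 232, 456 and 4462 FPKM. Replicate 3 of each group stood apart from the other replicates along transcript length, since genes in the top 25% by exon length had a median log2 difference of -0.25 from the other replicates in the library labelled WT and of -0.12 in the one labelled KO.

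To show the regulatory sequence around the starts of these genes, promoter windows from RefSeq (GRCm38.p6) were searched, which reach from 250 bases before to 50 bases after a start. Windows were found for 7 of the 10 genes, and *Tgm2*, *Lyve1* and *Il10* had none. Sequences are printed for *Retnla* and *Chil3*, which are textbook STAT6 targets, and for *Mrc1* and *Cd163*, which had the highest log2 fold changes of the tested members. Each runs 5′ to 3′ on the strand of the gene and stops before the first annotated exon base. Capitals mark matches, on either strand, to a STAT6-type motif (TTC and GAA separated by 4 bases), a C/EBP-type motif (TTGC and AA separated by 2 bases) and the PU.1 core (GAGGAA).
*Retnla* (chr16:48842359-48842550, + strand): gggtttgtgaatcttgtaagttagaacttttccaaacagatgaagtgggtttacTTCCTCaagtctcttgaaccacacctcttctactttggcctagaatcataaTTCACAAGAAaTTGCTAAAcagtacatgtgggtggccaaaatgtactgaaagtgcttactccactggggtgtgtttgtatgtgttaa
*Chil3* (chr3:106167565-106167814, - strand): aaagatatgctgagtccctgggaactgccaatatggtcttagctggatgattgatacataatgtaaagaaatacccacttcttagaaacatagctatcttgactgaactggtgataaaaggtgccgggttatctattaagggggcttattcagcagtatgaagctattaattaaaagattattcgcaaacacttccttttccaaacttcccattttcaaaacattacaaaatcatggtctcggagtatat
*Mrc1* (chr2:14229164-14229391, + strand): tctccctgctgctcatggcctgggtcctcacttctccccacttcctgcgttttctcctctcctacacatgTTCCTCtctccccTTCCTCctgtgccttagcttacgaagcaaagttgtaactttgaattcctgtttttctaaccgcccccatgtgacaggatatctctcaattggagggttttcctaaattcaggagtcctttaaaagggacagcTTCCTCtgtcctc
*Cd163* (chr6:124304401-124304650, + strand): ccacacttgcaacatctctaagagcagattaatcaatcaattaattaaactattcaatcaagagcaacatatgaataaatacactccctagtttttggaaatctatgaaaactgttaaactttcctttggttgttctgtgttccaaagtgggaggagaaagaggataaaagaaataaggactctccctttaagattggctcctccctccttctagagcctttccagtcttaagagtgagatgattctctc
The window of *Retnla* was the only one of the members' windows with a STAT6-type match, at -145 to -136 relative to the start, and a C/EBP-type match follows it at -134 to -127. Of all 32851 windows, 6.95% held a STAT6-type match and 10.8% a C/EBP-type match. *Mrc1* had 3 PU.1 cores, whose letters read as the reverse strand, and 28.3% of windows held at least 1. *Chil3* and *Cd163* had no match to these motifs. A MAF recognition core (TGCTGAC, in 4.67% of windows) was matched on the reverse strand of *Retnla* at -48 to -42, which lies in an annotated exon and is not printed. No member's window held the interferon response element (2 copies of GAAA separated by 2 bases, in 3.44% of windows). The windows of *Il4ra* and *Il13ra1* differed from the others in composition, with 17 and 21 CpG dinucleotides in the 250 bases before the start, against 0 to 3 in the other members' windows and a median of 6 over all windows. These matches describe letters and do not show that a factor binds.

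The comparison asked which of these markers were higher and which were lower in macrophages kept with *Cd177* KO neutrophils. The markers did not move as a group. With limma on log2(FPKM + 0.5) and an adjusted p-value under 0.05, *Mrc1*, *Cd163*, *Il10*, *Chil3* and *Folr2* were higher in KO-labelled libraries, *Tgm2* and *Il13ra1* were lower, and *Il4ra* did not pass. Thus 5 of the 8 tested members were called higher, against a background of 27.1% of all tested genes, and 2 were called lower, against 10.5%. *Cd163* and *Il10* passed the filter only through the KO-labelled libraries, so their passing and their rise are not independent. The groups did not overlap in these 7 members, above in 5 (37.5% of all tested genes) and below in 2 (14.4%). With the study's limits, more than 2-fold with p under 0.05 before adjustment, *Mrc1*, *Cd163* and *Il10* were higher (6.68% of all tested genes) and *Tgm2* was lower (4.43%). The median log2 fold change of all tested genes was itself 0.19, and with median-of-ratios scaling, which brought it to -0.00046, 2156 genes were called higher and 2215 lower in place of 3619 and 1408. The plot of the members by library shows the values behind these calls.

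**Figure D1:**
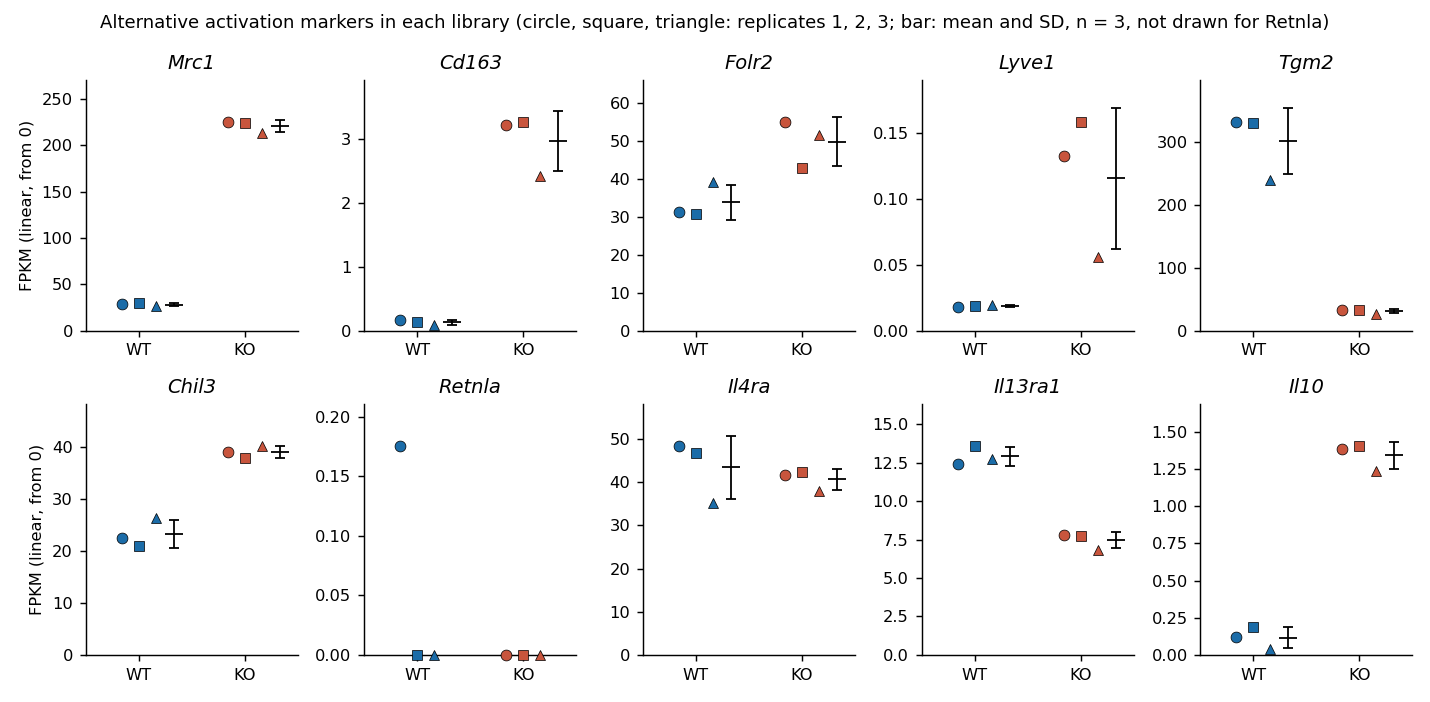
FPKM of each of the 10 genes (linear axis from 0) in WT-labelled and KO-labelled libraries, with circles, squares and triangles for replicates 1, 2 and 3 and a bar for the mean and SD (n = 3, not drawn for *Retnla*, which is listed at 0 in 5 libraries). *Mrc1*, *Cd163* and *Il10* sit far apart between the groups, *Tgm2* does so in the opposite direction, and *Il4ra* overlaps.

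Among the endocytic receptors, *Mrc1* gave the clearest separation. It encodes the mannose receptor CD206, a lectin that takes up mannosylated glycoproteins and collagen fragments (ENSMUSG00000026712, chromosome 2 from 14229392 to 14332057 in GRCm38, by GENCODE M21, which gave all names and positions here). *Mrc1* had 28.3, 29.4 and 26.3 FPKM in WT-labelled libraries and 225, 223 and 213 FPKM in KO-labelled libraries. Every KO-labelled library lay above every WT-labelled library, and the values within a group differed little. The mean rose 7.89-fold, from 28.0 ± 1.60 to 221 ± 6.46 FPKM (SD, n = 3 each), and the fitted log2 fold change was 2.96 (standard error, SE, 0.08, limma adjusted p = 2.08e-06). Against *Adgre1*, the F4/80 gene of mature macrophages, the FPKM ratio of *Mrc1* was between 0.113 and 0.121 in WT-labelled libraries and between 0.724 and 0.764 in KO-labelled libraries, a within-library ratio that no scaling between libraries can alter.

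*Cd163* (ENSMUSG00000008845, chromosome 6 from 124304656 to 124330527) encodes the receptor that clears haemoglobin bound to haptoglobin. It had 0.166, 0.132 and 0.0820 FPKM in WT-labelled libraries and 3.21, 3.27 and 2.42 FPKM in KO-labelled libraries. The gene was barely detected in the first group and low in the second, where replicate 3 was the lowest. Its mean FPKM was 23.5-fold higher in KO-labelled libraries, with a log2 fold change of 2.46 on the log2(FPKM + 0.5) scale (SE 0.15, limma adjusted p = 5.27e-05). For such a low gene the size depends on the pseudocount, and the log2 fold change was 3.77 with a pseudocount of 0.1 and 1.81 with a pseudocount of 1.

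*Folr2*, the gene of folate receptor beta (ENSMUSG00000032725, chromosome 7 from 101839988 to 101857194), which marks many tissue-resident macrophages, differed less. Its values were 31.4, 30.8 and 39.3 FPKM in WT-labelled libraries and 55.2, 42.9 and 51.7 FPKM in KO-labelled libraries. The groups came close to each other at WT replicate 3 and KO replicate 2. The log2 fold change was 0.55 (SE 0.14, limma adjusted p = 0.0192), which is 1.47-fold in mean FPKM. This call did not hold in every setting, since the adjusted p-value from limma was 0.116 with median-of-ratios scaling (log2 fold change 0.34), and 0.0659, 0.0623, 0.0723 and 0.0596 without WT replicate 1, WT replicate 2, KO replicate 1 and KO replicate 3, respectively.

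*Lyve1*, which encodes a hyaluronan receptor of lymphatic endothelium and of perivascular macrophages (ENSMUSG00000030787, chromosome 7 from 110850607 to 110863239), was close to the limit of detection. It had 0.0180, 0.0189 and 0.0190 FPKM in WT-labelled libraries and 0.132, 0.158 and 0.0558 FPKM in KO-labelled libraries. Scaled by the implied depth, the 3 WT-labelled libraries held the same amount (1.00 each, relative to WT replicate 1), and the KO-labelled ones held 6.83, 9.41 and 3.01 times as much. The WT values lay near the smallest step of the values. The equal amounts and the multiples thus rest on few fragments and are not precise. The gene was not part of the main test. Without a filter on low values its log2 fold change was 0.24 (limma adjusted p = 0.0699). The endothelial gene *Prox1*, also under the filter, was at most 0.106 FPKM in any library and at most 0.0419 FPKM in KO-labelled libraries. The part of endothelial cells in the level of *Lyve1* was not tested.

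*Tgm2*, tissue transglutaminase, which crosslinks proteins and is induced in macrophages by IL-4 and by several inflammatory signals (ENSMUSG00000037820, chromosome 2 from 158116402 to 158146436), moved against the receptors. It had 333, 330.2 and 241 FPKM in WT-labelled libraries and 33.2, 33.0 and 27.0 FPKM in KO-labelled libraries. The groups were far apart, and replicate 3 was the lowest of its group in both. The mean was 9.70-fold lower in KO-labelled libraries, with a log2 fold change of -3.25 (SE 0.16, limma adjusted p = 1.77e-05). *Mrc1* and *Tgm2* therefore exchanged places, since the FPKM ratio of *Mrc1* to *Tgm2* within a library was between 0.0850 and 0.109 in WT-labelled libraries and between 6.76 and 7.91 in KO-labelled libraries, where this and the other ratios given were chosen after the values were seen.

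The 2 secreted markers gave different pictures. *Retnla*, the gene of RELMα or FIZZ1 (ENSMUSG00000061100, chromosome 16 from 48842551 to 48844461), was listed at 0.176 FPKM in WT replicate 1 and at 0 in the other 5 libraries. If 1 step of the values is 1 fragment, the single value stands for 2.00 fragments. A listed 0 can be a failed estimate, and a difference was not detectable at this depth. The related gene *Retnlg*, on the other hand, which is typical of neutrophils, had 2.23, 1.28 and 2.25 FPKM in WT-labelled libraries and 5.18, 5.71 and 7.77 FPKM in KO-labelled libraries (log2 fold change 1.48, limma adjusted p = 0.00243). *Retnla*, whose window held the STAT6-type and C/EBP-type matches, had the lowest mean FPKM of the members over all libraries, at 0.0293. In WT-labelled libraries alone *Lyve1* had a lower mean. A link between the matches and the level was not tested.

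*Chil3*, the gene of the chitinase-like protein Ym1 (ENSMUSG00000040809, chromosome 3 from 106147554 to 106167564), which macrophages and immature neutrophils both make, was higher in KO-labelled libraries. It had 22.4, 21.0 and 26.2 FPKM in WT-labelled libraries and 39.1, 37.7 and 40.1 FPKM in KO-labelled libraries. The groups did not overlap, and the log2 fold change was 0.74 (SE 0.10, limma adjusted p = 0.00168), or 1.68-fold in mean FPKM. With median-of-ratios scaling it was 0.53 (limma adjusted p = 0.0106). *Chil4*, a close copy whose reads could be shared with *Chil3*, was listed at no more than 0.00985 FPKM.

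Neutrophil transcripts moved with *Chil3*. The 18 genes of the neutrophil list summed to between 203 and 263 FPKM in WT-labelled libraries and between 562 and 576 FPKM in KO-labelled libraries. Of the 14 tested, 12 were higher, against 27.1% of all tested genes, and 1, *Mmp8*, was lower, against 10.5%. *Cd177*, *Cxcr2* and *Padi4*, which are among the 12, passed the filter only through the KO-labelled libraries, where they were high. *Ly6g*, the marker removed by the sort, was listed at 0 in every WT-labelled library, and its values were 0.660, 0.547 and 0.403 FPKM in KO-labelled libraries. *Ngp*, the gene of a neutrophil granule protein, rose 8.31-fold in mean FPKM and *S100a9* rose 2.59-fold, both more than *Chil3*, and *Chil3* over *Ngp* went from between 1.66 and 2.09 in WT-labelled libraries to between 0.356 and 0.372 in KO-labelled libraries. The part of neutrophil RNA in the rise of *Chil3* was not tested, and in these bulk libraries a change in the number of cells of a type and a change in RNA per cell cannot be told apart. The plot of *Chil3* beside neutrophil marker transcripts gives these genes library by library.

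**Figure D2:**
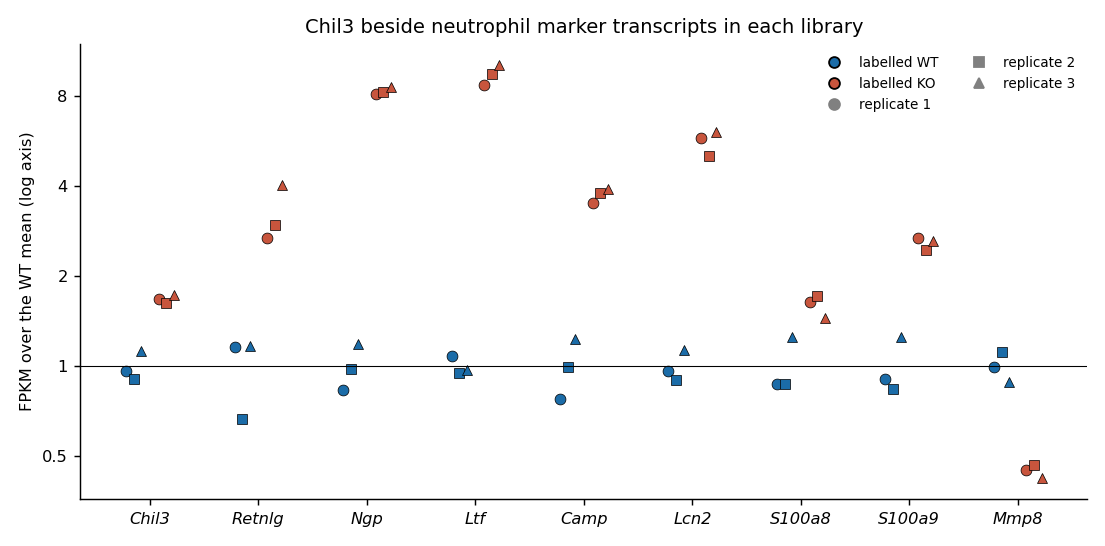
FPKM of *Chil3*, *Retnlg* and 7 other neutrophil-associated genes in each library, divided by the gene's mean in WT-labelled libraries (log axis). *Chil3* rose 1.68-fold, about as much as *S100a8* (1.60-fold) and less than *Ngp* (8.31-fold), while *Mmp8* fell to 0.447 of its WT mean.

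The receptor chains for IL-4 and IL-13 did not change alike. *Il4ra*, the signalling chain common to both cytokines (ENSMUSG00000030748, chromosome 7 from 125552120 to 125579474), had 48.4, 46.7 and 35.1 FPKM in WT-labelled libraries and 41.8, 42.4 and 37.8 FPKM in KO-labelled libraries. The groups overlapped, with WT replicate 3 below every other library. Its log2 fold change was -0.08 (95% interval -0.40 to 0.24, limma adjusted p = 0.671). Without WT replicate 1 it was 0.0029, and with the third replicate of both groups left out, a choice made after seeing the data, it was -0.18 with an adjusted p-value of 0.0326 from limma.

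*Il13ra1*, the chain that joins IL-4Rα to form the receptor for IL-13 (ENSMUSG00000017057, chromosome X from 36112110 to 36171259), was lower. It had 12.4, 13.6 and 12.7 FPKM in WT-labelled libraries and 7.83, 7.73 and 6.85 FPKM in KO-labelled libraries. The groups did not overlap, and the log2 fold change was -0.75 (SE 0.09, limma adjusted p = 0.00100), a mean that was 1.73-fold lower. *Il2rg*, the common gamma chain that joins IL-4Rα in the other IL-4 receptor, was also lower, from 39.8 ± 0.913 to 21.4 ± 0.696 FPKM (SD, n = 3 each; log2 fold change -0.88, limma adjusted p = 0.000205). The FPKM ratio of *Il4ra* to *Il13ra1* was between 2.76 and 3.90 in WT-labelled libraries and between 5.33 and 5.52 in KO-labelled libraries, and that of *Il4ra* to *Il2rg* was between 0.859 and 1.23 and between 1.82 and 2.00.

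*Il10* encodes an anti-inflammatory cytokine made by macrophages and lymphocytes (ENSMUSG00000016529, chromosome 1 from 131019845 to 131024974). It had 0.121, 0.185 and 0.0424 FPKM in WT-labelled libraries and 1.39, 1.41 and 1.23 FPKM in KO-labelled libraries. If 1 step of the values is 1 fragment, this gene with 1 annotated transcript had 3.00, 4.39 and 1.00 fragments in WT-labelled libraries. In KO-labelled libraries it had 32.0, 37.4 and 29.8 fragments. Some of these, such as 4.39 and 37.4, are not whole, so they are rough sizes and not counts. *Il10* was thus barely detected in one group and low in the other. The log2 fold change was 1.59 (SE 0.15, limma adjusted p = 0.000356), and it was 2.79 with a pseudocount of 0.1 and 1.07 with a pseudocount of 1. The T cell gene *Cd3e* was at most 0.0321 FPKM in any library. Of the 9 genes of the lymphocyte list, *Cd79b* and *Cd4* were tested. Both were higher in KO-labelled libraries, as were 27.1% of all tested genes. The list summed to between 2.097 and 2.995 FPKM in WT-labelled libraries and between 9.32 and 9.99 FPKM in KO-labelled libraries. The part of these genes in the rise of *Il10* was not tested.

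Since FPKM is a level per length, the members could be ordered within a group. In the libraries labelled WT, *Tgm2* stood first, followed by *Il4ra*, *Folr2*, *Mrc1*, *Chil3* and *Il13ra1*, and *Cd163*, *Il10*, *Retnla* and *Lyve1* lay under 0.2 FPKM. The ranges of *Il4ra* and *Folr2* overlapped, as did those of the last 4 genes. In the libraries labelled KO, *Mrc1* stood first, followed by *Folr2*, *Il4ra*, *Chil3*, *Tgm2*, *Il13ra1*, *Cd163*, *Il10*, *Lyve1* and *Retnla*, and only *Il4ra* and *Chil3* overlapped between neighbours. Placed among the 13367 tested genes, *Mrc1* was above 86.6% to 88.6% of them in WT-labelled libraries and above 98.7% to 98.9% in KO-labelled libraries. *Tgm2* went from above 98.7% to 99.3% down to above 87.1% to 90.0%, and it remained a highly expressed gene.

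The directions of the called members held across the ways of processing that were tried, as the plot of fold changes shows. For *Mrc1* the log2 fold change lay between 2.74 and 3.01 over 17 alternatives, and for *Tgm2* between -3.46 and -3.15. *Chil3* lay between 0.53 and 0.83 and *Il13ra1* between -0.96 and -0.70, and both stayed under an adjusted p-value of 0.05 in limma throughout, with highest values of 0.0108 and 0.00639. Leaving out the third replicate of both groups gave *Cd163* a log2 fold change of 2.53 and *Il10* one of 1.54.

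**Figure D3:**
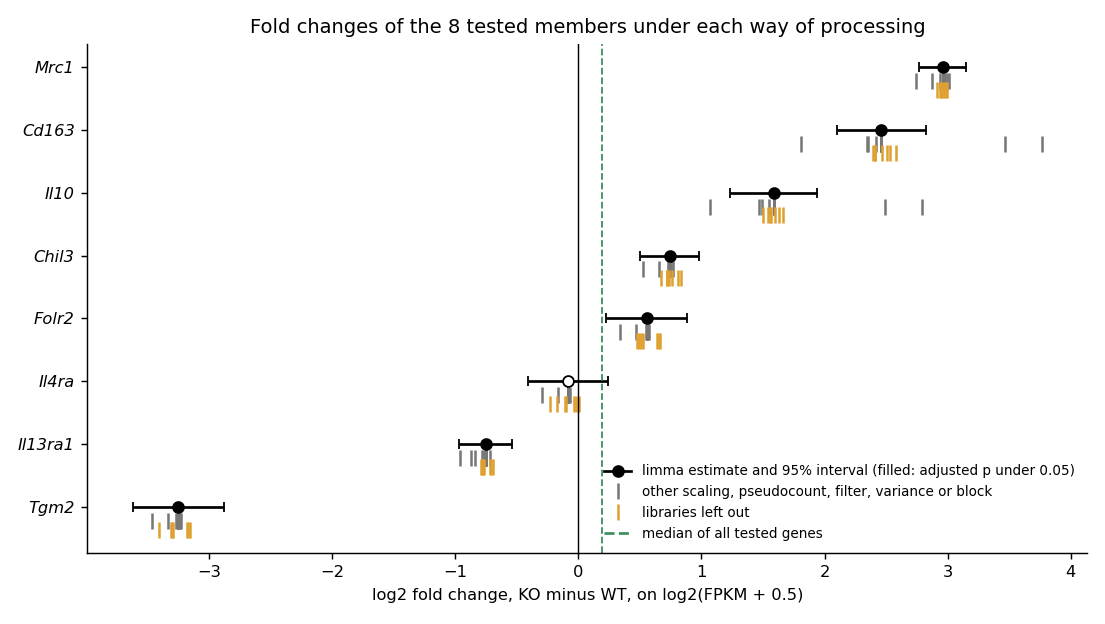
Log2 fold change (KO minus WT, on log2(FPKM + 0.5)) of the 8 tested members with its 95% interval from limma, with grey ticks for other scaling, pseudocount, filter, variance or block and orange ticks for libraries left out. *Il4ra* is the open symbol with an adjusted p-value of 0.671, and the dashed line is the median of all tested genes at 0.19.

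The wider pathway was described with 4 lists. Of 12 genes of IL-4 and IL-13 signalling, 11 were tested, with a median log2 fold change of 0.29 beside 0.19 for all tested genes. In KO-labelled libraries 5 were higher, against 27.1% of all tested genes, and 4 were lower, against 10.5%. With median-of-ratios scaling 3 were higher. *Il4* passed the filter only through the KO-labelled libraries and *Il13ra2* only through the WT-labelled ones, so their passing and their direction are not independent. *Jak3*, the kinase bound to the common gamma chain, rose from 3.33 ± 0.555 to 8.33 ± 0.486 FPKM (SD, n = 3 each; log2 fold change 1.22, limma adjusted p = 0.000596). *Ptpn6*, which encodes the phosphatase SHP-1, rose by 0.67 on the log2 scale (limma adjusted p = 0.00134). Both of these act on the signal of the receptor, as does *Socs1*, a feedback inhibitor of JAK kinases, which was lower (log2 fold change -2.55, limma adjusted p = 1.38e-05). *Il13ra2*, the decoy receptor for IL-13, had 1.08, 0.874 and 1.14 FPKM in WT-labelled libraries and 0, 0.0324 and 0.0237 FPKM in KO-labelled libraries. *Stat6* itself rose by 0.44 (limma adjusted p = 0.0286), but it lost its call in 6 of 17 alternatives. The rise was 0.23 with median-of-ratios scaling (limma adjusted p = 0.177). Its adjusted p-value from limma was 0.102 without KO replicate 1 and 0.0864 without KO replicate 2. That value was 0.0592 without a filter on low values, 0.0621 with upper-quartile scaling and 0.0632 with libraries rescaled to equal FPKM sums.

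Other genes known from IL-4-activated macrophages were split as well. Of the 20 listed, 11 were tested, with a median log2 fold change of -0.01. Of these, 3 were higher, against 27.1% of all tested genes, and 4 were lower, against 10.5%. *Arg1* and *Ccl17* passed the filter only through the WT-labelled libraries. The 4 that were lower became 2 without WT replicate 2, KO replicate 2 or KO replicate 3. *Clec10a*, which encodes a macrophage lectin, rose from 0.525 ± 0.0386 to 4.71 ± 0.281 FPKM (SD, n = 3 each). Its log2 fold change was 2.34 (limma adjusted p = 1.40e-05). *Pparg*, the nuclear receptor that supports alternative activation, rose from 2.40 ± 0.324 to 13.4 ± 0.347 FPKM (SD, n = 3 each; log2 fold change 2.27, limma adjusted p = 1.69e-05). *Arg1*, arginase 1, went the other way, with 166, 158 and 176 FPKM in WT-labelled libraries and 0.329, 0.409 and 0.338 FPKM in KO-labelled libraries. *Clec7a*, the beta-glucan receptor dectin-1, was lower as well, at 596 ± 28.3 and 109.8 ± 4.54 FPKM (SD, n = 3 each; log2 fold change -2.43, limma adjusted p = 3.71e-06). *Arg1* and *Tgm2*, both high in WT-labelled libraries, were thus on the opposite side to *Mrc1*, *Clec10a* and *Pparg*.

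Of 14 genes of the IL-10 receptor, its signalling and its targets, a list that also holds *Il4ra*, all 14 were tested (median log2 fold change -0.15). Of these, 5 were higher, against 27.1% of all tested genes, and 4 were lower, against 10.5%. With median-of-ratios scaling 3 were higher and 7 were lower, and 7 were lower without WT replicate 3 and 8 without the third replicate of both groups. *Il10ra*, the ligand-binding chain, had 9.84, 13.8 and 12.3 FPKM in WT-labelled libraries and 19.7, 20.3 and 43.8 FPKM in KO-labelled libraries, where replicate 3 stood apart. Its log2 fold change of 1.096 had an adjusted p-value of 0.0321 from limma, which was 0.0738 with median-of-ratios scaling and 0.0974, 0.0557 and 0.0535 without WT replicates 1, 2 and 3. Without KO replicate 3 the log2 fold change of *Il10ra* was 0.72 (limma adjusted p = 0.0197), and without the third replicate of both groups it was 0.75 (limma adjusted p = 0.0209). *Maf*, a transcription factor that drives *Il10* in several cell types, rose from 15.7 ± 0.997 to 59.5 ± 1.77 FPKM (SD, n = 3 each; log2 fold change 1.89, limma adjusted p = 1.13e-05). *Nfil3* and *Il1rn*, the genes of an IL-10-induced repressor and of the IL-1 receptor antagonist, were lower, with log2 fold changes of -2.14 and -2.11 (limma adjusted p = 1.13e-05 and 7.77e-05).

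Resident-type macrophage genes, the group that *Folr2*, *Lyve1*, *Mrc1* and *Cd163* accompany in tissues, were mostly higher. Of 23 listed, 21 were tested, with a median log2 fold change of 0.72 beside 0.19 for all tested genes. Of these, 14 were higher, against 27.1% of all tested genes, and 1 was lower, against 10.5%. *Gas6*, a bridging ligand for uptake of dead cells, rose 14.1-fold in mean FPKM (log2 fold change 3.79, limma adjusted p = 1.68e-06), and *F13a1*, the A subunit of coagulation factor XIII, rose 5.75-fold (log2 fold change 2.44, limma adjusted p = 3.60e-06). *Cd36*, a scavenger receptor for oxidised lipids, was the one that was lower, at 793 ± 59.7 and 576 ± 20.7 FPKM (SD, n = 3 each; log2 fold change -0.46, limma adjusted p = 0.00785), but its adjusted p-value was 0.0548 from limma without a filter on low values, where no gene of the list was lower. With median-of-ratios scaling 11 were higher and 2 were lower, and without the third replicates of both groups 15 were higher and 3 were lower. The plot of gene lists places the members among these genes.

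**Figure D4:**
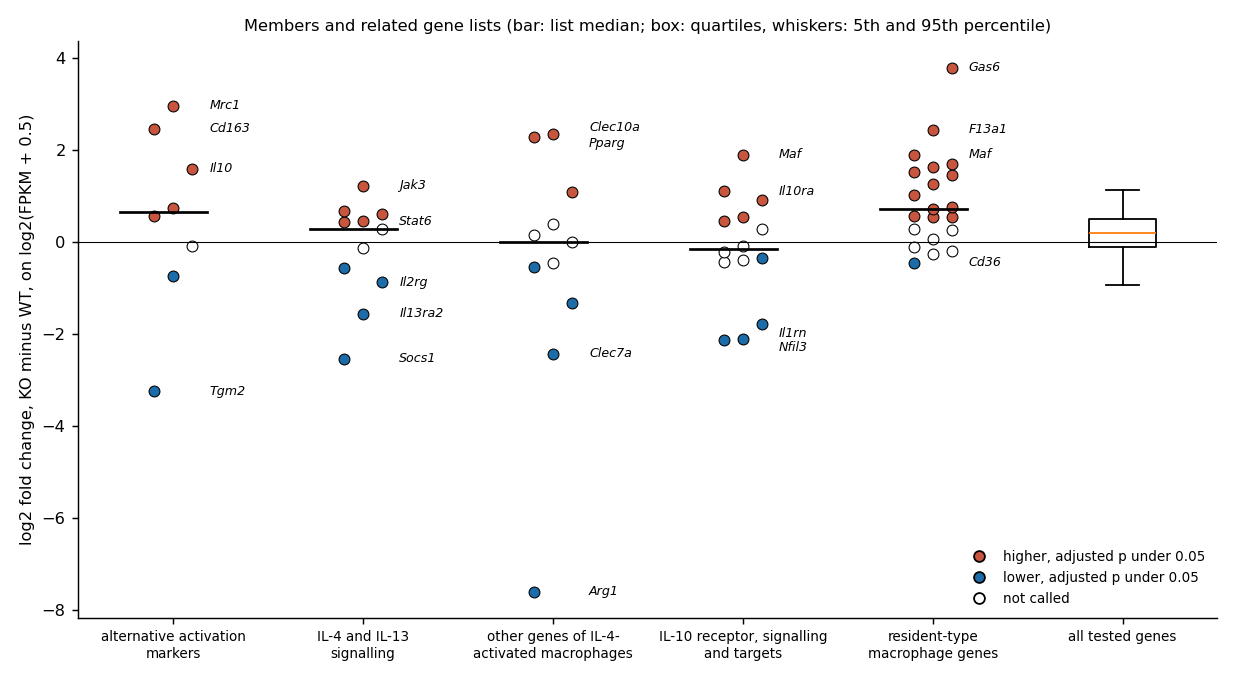
Log2 fold change (KO minus WT, on log2(FPKM + 0.5)) of each tested gene of the members' list and of 4 related lists, coloured by call, with a bar at each list's median and, at the right, the quartiles and the 5th and 95th percentiles of all 13367 tested genes. The members reach from *Tgm2* at -3.25 to *Mrc1* at 2.96, and *Arg1* lies lowest at -7.60.

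Apart from the neutrophil genes given above and *Pdpn*, markers of other cells were mostly low. The 6 dendritic cell genes were all under the filter, and their sum was at most 1.15 FPKM. Of the 5 eosinophil genes, *Epx* was listed at 0 in all libraries, and none of the 3 tested passed in limma, where 1, *Ccr3*, had a p-value of 0.0329 before adjustment. The endothelial list summed to between 88.6 and 102 FPKM in WT-labelled libraries and between 10.1 and 12.5 FPKM in KO-labelled libraries, nearly all of it *Pdpn*, which inflammatory macrophages express too. Of its 3 tested genes, 2 were lower, *Pdpn* and *Kdr*, against 10.5% of all tested genes. *Kdr* had means of 0.913 and 0.186 FPKM (log2 fold change -1.03, limma adjusted p = 0.00490) and passed the filter only through the WT-labelled libraries. The source of these transcripts was not tested. Of the spinal cord genes, *Aqp4*, *Mog* and *Snap25* were listed at 0 in all libraries, and the tested *Mbp* and *Tmem119* had adjusted p-values of 0.186 and 0.0607 from limma. Among 10 macrophage markers 3 were higher, against 27.1% of all tested genes, and 2 were lower, against 10.5%. Of the 3, *Adgre1* (log2 fold change 0.30, limma adjusted p = 0.0449) lost its call in 10 of 17 alternatives, with adjusted p-values up to 0.516 from limma. The 2 lower were *Cd14* and *Fcgr1*, with log2 fold changes of -3.33 and -1.83 (limma adjusted p = 6.82e-06 and 7.16e-06).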

How the data were processed

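RNA-seq of 6 BMDM libraries, 3 labelled WT and 3 labelled KO, was analysed. The deposited values are FPKM, made by the authors for each gene and library. The submitters' processing notes name fastp 0.17.1, HISAT2 2.1.0, DESeq2 1.18.1 and R 3.4.3, while genome build, annotation and counting tool are not given in the sources used here. Of 55335 Ensembl identifiers, 55154 (99.7%) matched GENCODE M21, which gave symbols and positions. No column was left unmatched.

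FPKM carries no counts, so the study's DESeq2 test could not be repeated. Only 39.7% to 43.4% of low values lay within 0.1 of whole multiples of a library's step (20% by chance), so counts could not be recovered. FPKM follows the library's total, so that large changes in abundant genes shift the others. The 13367 genes whose mean reached 0.5 FPKM entered a two-sided test in limma 3.58.1 under R 4.3.3 (eBayes with trend) on the log2(FPKM + 0.5) scale, with Benjamini-Hochberg adjustment over all of them and 95% intervals. A fold change on this scale understates the change of low genes. The fit was tested on simulated data. Alternatives covered pseudocount, filter, scaling, variance, the replicate number as a block and libraries left out.

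Members and lists were chosen with earlier results of these data known. Genes named are all members, *Stat6*, *Il2rg*, *Il10ra* and *Arg1*, the 2 largest rises and falls among called genes of each pathway list, tested paralogues and neighbours, and markers of other cells. Further genes (*Cd14*, *Fcgr1*, *Adgre1* and the other macrophage markers) were named after their values were seen. A few motif and marker results are not reported here. Python 3.11.15 with pandas 2.3.3 and matplotlib 3.10.9 was used for the rest.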

Additional observations from a re-analysis of the deposited data

How the results depend on the processing

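Among the members, 5 were higher and 2 were lower under the alternatives run, apart from *Folr2* and *Il4ra*, whose exceptions are given above, and *Il10*, which lay under a filter of at least 1 FPKM. With the study's threshold 3 were higher and 1 was lower. The number of members higher lay between 4 and 5 and of those lower was 2 with each library left out in turn. With each library left out in turn, *Il4ra* had a log2 fold change between -0.23 (without WT replicate 3) and 0.0029 (without WT replicate 1), and with median-of-ratios scaling it was -0.30. Median-of-ratios scaling gave 2156 genes higher and 2215 lower in all, where 49.3% of called genes were higher, against 72.0% as deposited, 63.6% with upper-quartile scaling and 55.7% with quantile normalization. With each library left out, between 2420 and 4259 genes were higher and between 1059 and 1707 were lower. *Mapkapk2*, a neighbour of *Il10*, changed sign with median-of-ratios scaling (-0.18), upper-quartile scaling (-0.049) and without KO replicate 3 (-0.012), and was called in none of them. With each library left out it lay between -0.012 and 0.087. The cause was not tested.

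Replicate numbers are shared between the groups. The labels give these numbers no meaning, so they were not taken as pairs in the main fit. Deviations of same-numbered libraries from their group means correlated by 0.12, 0.04 and 0.26 for replicates 1, 2 and 3. WT replicate 2 correlated best with KO replicate 1. The value of the third replicates was the highest of all pairings, and their correlations with other numbers lay between -0.23 and -0.13. Whether same-numbered libraries share a factor was not tested. With the replicate block 4253 genes were higher and 1681 lower, and 5 members were higher and 2 lower. FPKM without counts gives no counting interval, and values of *Il10*, *Retnla* and *Lyve1* under 0.2 FPKM rest on few fragments.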

Other observations

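Of 20 paralogues and locus neighbours of the members, 7 were tested. In KO-labelled libraries 2 were higher, against 27.1% of all tested genes, and 3 were lower, against 10.5%. The 2 higher were *Chil1* and *Retnlg*, and the 3 lower were *Il13ra2*, *Cd44* and *Il21r*. *Chil1* moved in the direction of *Chil3*, and *Il13ra2* in that of *Il13ra1*. *Il13ra2* passed the filter only through the WT-labelled libraries. *Chil1*, which encodes the chitinase-like protein YKL-40 and is a relative of *Chil3*, had 0.0374, 0.138 and 0.0594 FPKM in WT-labelled libraries and 2.46, 2.18 and 2.27 FPKM in KO-labelled libraries, a log2 fold change of 2.28 (SE 0.14, limma adjusted p = 4.43e-05). It passed the filter only through the KO-labelled libraries. *Mrc2*, the relative of *Mrc1* that binds collagen, had 9.73 ± 2.02 and 12.7 ± 1.36 FPKM (SD, n = 3 each), and its adjusted p-value was 0.112 from limma, 0.0233 with the replicate block and 0.0219 with the third replicates left out. *Cd44*, a hyaluronan receptor that shares its ligand with the product of *Lyve1*, had a log2 fold change of -0.41 (limma adjusted p = 0.0354), and its adjusted p-value was between 0.00108 and 0.114 over the alternatives. *Il21r*, the neighbour of *Il4ra*, had a log2 fold change of -0.30 (limma adjusted p = 0.0330), with a range of adjusted p-values from 0.00387 to 0.123. *Mapkapk2*, the kinase gene beside *Il10*, had 79.0 ± 4.94 and 81.2 ± 5.22 FPKM (SD, n = 3 each; limma adjusted p = 0.760), and the other neighbours *Il19*, *Il20* and *Il24* lay under the filter. *Cd163l1*, *Retnlb* and *Chia1* were listed at 0 in all libraries.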
